A study of Homo sapiens with 6 samples.

Results

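The genes described here are 10 human genes whose proteins write, remove or read 1-methyladenosine (m1A) in RNA. They were chosen by function and matched by Ensembl gene ID, with no cut on a measured value, although earlier results of these data were known when the list was made. Each of the 10 IDs matched exactly 1 of the 62492 features in the count table. Of those features, 20515 had at least 1 count. The table holds no gene symbols, so the symbols used below are those supplied with the list of IDs. The counts are ribosome footprints, the pieces of mRNA left under a ribosome after nuclease digestion, in WPMY-1, a myofibroblast line derived from human prostate stroma. The 3 control libraries are labelled with a control short hairpin RNA and a wild-type TRMT61A genotype. The 3 knockdown libraries are labelled with a hairpin against TRMT61A (sh61A) and a TRMT61A knockdown genotype. The labels name no other treatment, time or allele. They do not say whether the cells of a group were 1 clone or a pool, or whether its libraries came from separate cultures, so a p-value here reflects the spread among these libraries alone, and that spread may be technical.

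m1A is an adenosine with a methyl group on the base edge that normally pairs, so the mark blocks Watson-Crick pairing. It is abundant in tRNA, where it holds the folded molecule together, and rare in mRNA. In the cytosol it is placed in the T loop of tRNA by a complex of TRMT61A, which carries the catalytic site, and TRMT6, which is needed to bind the tRNA. Separate enzymes act in mitochondria, dioxygenases of the AlkB family can take the methyl group off, and YTH-domain proteins, best known as readers of N6-methyladenosine, have been reported to bind it as well.

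Footprints on TRMT61A, the gene the hairpin targets, were lower in all 3 knockdown libraries than in any control library. The same held for 12.7% of all tested features. None of the 10 genes passed the test across all features. The level of TRMT61A in the knockdown was 56.9% of control (95% interval 37.0% to 87.7%). Its partner TRMT6 differed little between the groups, at 96.7% of control (52.2% to 179%). Levels are in CPM, counts scaled to a common library total, with library totals adjusted by the trimmed mean of M values (TMM), and the test was edgeR's quasi-likelihood test with Benjamini-Hochberg adjustment over 11653 features at a threshold of 0.05. With that test 0 of the 10 genes were called in either direction, beside 3.12% of all tested features (1.48% higher and 1.64% lower in the knockdown). The counts for the 10 genes were also 0 in DESeq2 and 0 in limma voom. DESeq2 called 834 of 20515 features, of which 12337 had no defined adjusted p-value, and limma voom called 443 of 11653. At an unadjusted p under 0.05 in edgeR there was 1 of the 10, TRMT61A, beside 16.3% of all tested features.

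Total counts ran from 6771455 to 8008896 in the control libraries and from 12704354 to 17752247 in the knockdown libraries, so depth moved with the group, and its part in the results was not tested. Between 61.8% and 73.2% of a library's counts lay on its 50 most abundant features. Principal component analysis separated the groups on the first component, as depth did. Controls lay from -73.49 to -41.1 and knockdown libraries from 35.55 to 64.62. The second component set knockdown libraries 1 and 3 apart from each other, at -79.6 and 77.5, with the other 4 libraries between -14.8 and 9.68. Markers of stromal and other cell types were not analysed here, because the features carry no symbols. For the same reason the levels of other m1A-linked genes, such as RRP8, PRORP, ALKBH7, FTO and YTHDC1, were not analysed here. All 10 genes passed the filter on low counts, and each library held at least 20 counts of each of them.

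**Figure D1:**
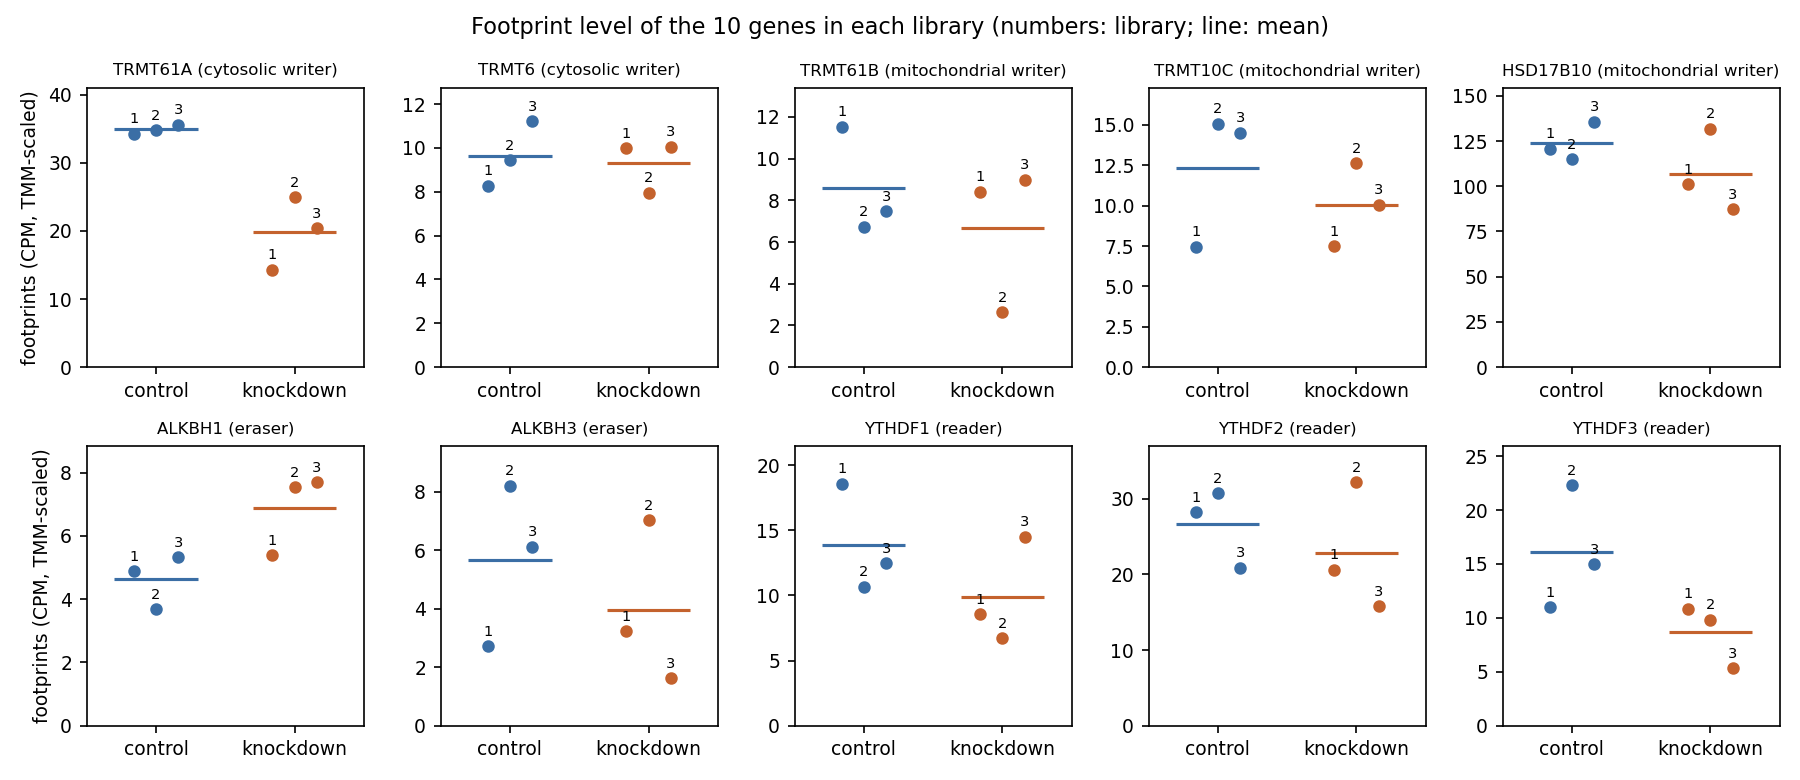
Footprint level of each of the 10 genes (vertical axis, TMM-scaled CPM, starting at 0 and scaled per gene) in 3 control and 3 knockdown libraries of WPMY-1. Points are libraries, numbered as in the labels, and lines are group means. TRMT61A and YTHDF3 lie lower, and ALKBH1 higher, in every knockdown library than in any control library, and the other 7 genes overlap between groups. Of all tested features, 24.8% did not overlap between groups (12.7% lower and 12.2% higher in the knockdown).

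Among the cytosolic writers, TRMT61A (ENSG00000166166.13_4) had 253, 284 and 314 counts in control libraries 1 to 3 and 218, 294 and 252 in knockdown libraries 1 to 3, although the knockdown libraries were deeper. On the scaled level these are 34.3, 34.8 and 35.6 CPM in control and 14.3, 24.9 and 20.4 CPM in knockdown. The 3 control libraries lay close together, and the knockdown libraries were lower and further apart, with library 2 the highest and library 1 the lowest. The group means were 34.9 ± 0.7 CPM and 19.9 ± 5.3 CPM (SD, n = 3 each). On the log2 scale the knockdown differed from control by -0.81 ± 0.29 (SE, 95% interval -1.44 to -0.19), with an adjusted p = 0.159 in edgeR (0.0147 before adjustment). A change at least as far below 0 was fitted for 15.9% of all tested features, and TRMT61A ranked 1083 of 11653 by p. In the quintile of tested features that TRMT61A belongs to by abundance, the smallest change called was 1.14 on the log2 scale. The lower level of TRMT61A therefore has an interval that leaves out 0, but it did not pass the threshold set over all features. A footprint count combines the amount of mRNA with the density of ribosomes on it, so this value is not a measure of how far the hairpin lowered TRMT61A mRNA.

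TRMT6 (ENSG00000089195.15_5), the subunit that does not carry the catalytic site, had 8.27, 9.44 and 11.2 CPM in the control libraries and 9.99, 7.97 and 10.1 CPM in the knockdown libraries. The groups overlapped almost completely. The means were 9.65 ± 1.49 CPM and 9.34 ± 1.19 CPM (SD, n = 3 each). For TRMT6 the log2 fold change was -0.05 ± 0.41 (SE, adjusted p = 0.978 in edgeR). The 95% interval, -0.94 to 0.84, leaves out a 2-fold change either way but not smaller ones.

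The 2 subunits can be set against each other inside each library, where neither depth nor scaling enters. TRMT61A took 80.6%, 78.7% and 76.0% of the summed counts of TRMT61A and TRMT6 in control libraries 1 to 3. It took 58.9%, 75.8% and 67.0% in knockdown libraries 1 to 3. Every knockdown share was below every control share, but knockdown library 2 came within its counting error of the controls. Its Wilson 95% interval was 71.3% to 79.8%, against 71.7% to 79.9% in control library 3. Knockdown library 1, at 53.8% to 63.8%, and knockdown library 3, at 62.1% to 71.6%, had intervals below those of all 3 controls, the lowest of which began at 71.7%. The mean share was 78.4% ± 2.3 in the controls, against 67.2% ± 8.4 in the knockdown libraries (SD, n = 3 each), a difference of -11.2 percentage points. It was -7.03 points without knockdown library 1 and -15.5 points without knockdown library 2. This share was described and not tested. Counts were not divided by length, so a share is comparable between libraries but does not say which subunit is the more translated.

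**Figure D2:**
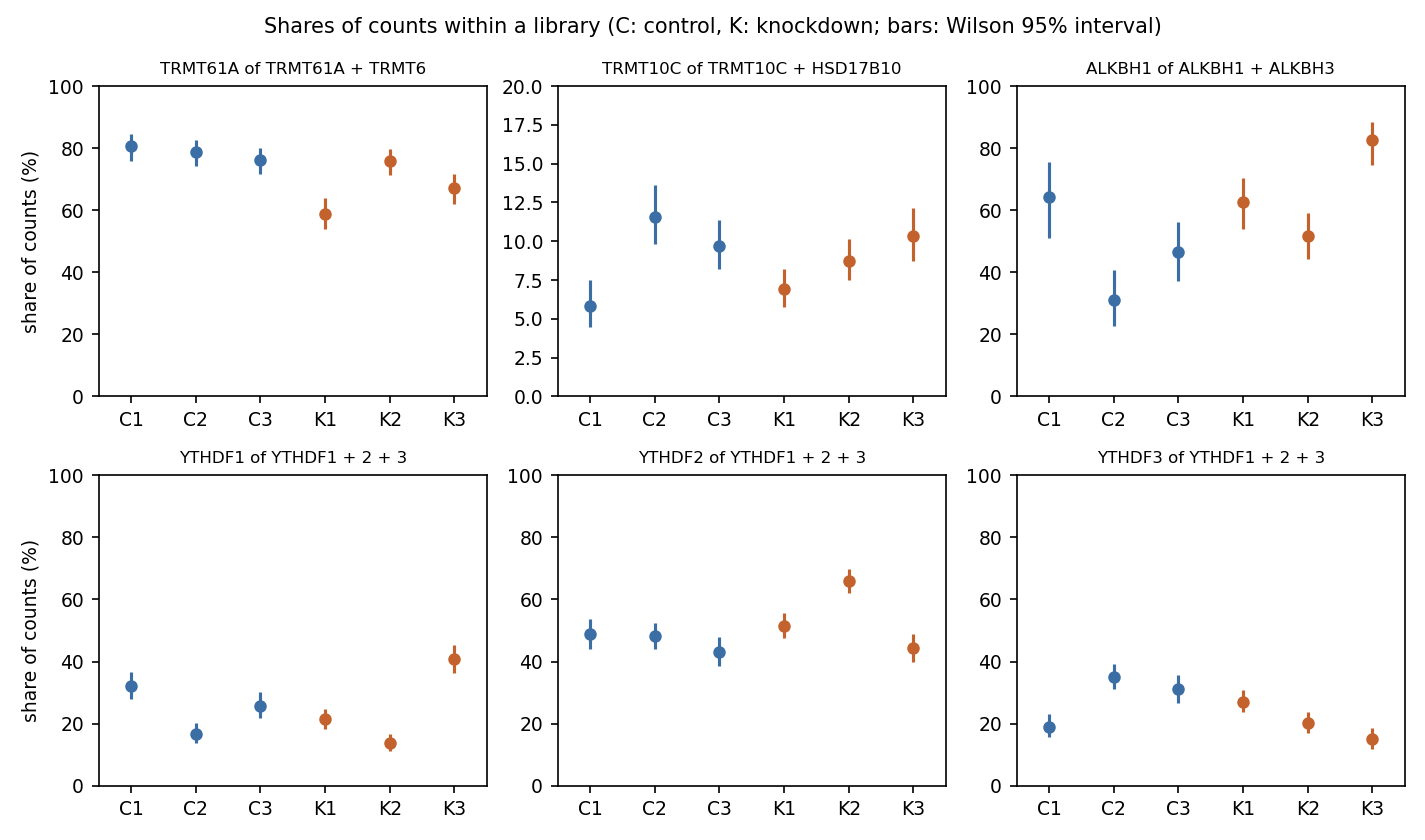
Share of counts (vertical axis, percent) that one gene takes of the summed counts of its functional partners or paralogues, in control libraries 1 to 3 (C1 to C3) and knockdown libraries 1 to 3 (K1 to K3). Bars are Wilson 95% intervals, and the axis ends at 20% for TRMT10C and covers the whole range elsewhere. The TRMT61A share is lower in all 3 knockdown libraries, with K2 (75.8%) next to C3 (76.0%), and the groups overlap in the other 5 panels.

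None of the mitochondrial writers passed the test, and their groups overlapped. TRMT61B (ENSG00000171103.11_6), the mitochondrial relative of TRMT61A, had 11.5, 6.74 and 7.49 CPM in control and 8.42, 2.63 and 8.99 CPM in knockdown. Knockdown library 2 was the low value of this gene, at 31 counts, while the other knockdown libraries lay inside the control range. The log2 fold change of TRMT61B was -0.36 ± 0.56 (SE, adjusted p = 0.849 in edgeR), and without knockdown library 2 it was 0.02. In the same library 2, TRMT61A had its highest knockdown level. TRMT61A took 90.5% of the summed counts of the 2 relatives there, against 63.0% and 69.4% in knockdown libraries 1 and 3 and 74.9% to 83.8% in control.

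TRMT10C (ENSG00000174173.7_5) methylates purines in mitochondrial tRNA and works with HSD17B10 (ENSG00000072506.13_5), a dehydrogenase that also serves as its partner in mitochondrial RNase P. TRMT10C had 7.46, 15.1 and 14.5 CPM in control and 7.49, 12.6 and 10.1 CPM in knockdown. Control library 1 and knockdown library 1 shared the low value, and the groups overlapped. TRMT10C had a log2 fold change of -0.30 ± 0.42 (SE, adjusted p = 0.824 in edgeR). With 1 library left out this ran from -0.56, without control library 1, to -0.13, without knockdown library 1.

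HSD17B10 was measured with the most counts of the 10 genes, 891 to 1557 per library, and with the smallest error. It had 121, 115 and 136 CPM in control and 101, 132 and 87.3 CPM in knockdown. Knockdown libraries 1 and 3 lay below the controls, and library 2 lay among them. HSD17B10 had a log2 fold change of -0.21 ± 0.23 (SE, adjusted p = 0.743 in edgeR), which was -0.40 without knockdown library 2 and -0.08 without knockdown library 3. The 95% interval of -0.71 to 0.29 corresponds to between 60.9% and 122% of control in this fit. With library size alone the value was -0.52 ± 0.26 (SE), but the median of all features was then -0.30. Relative to the median of all features HSD17B10 was at -0.22 with library size alone and -0.21 with TMM. TRMT10C took 9.02% ± 2.94 of the counts of the pair in the controls, against 8.65% ± 1.71 in the knockdown libraries (SD, n = 3 each), so the balance of this pair differed by less than the spread between libraries.

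The erasers had the fewest counts. ALKBH1 (ENSG00000100601.10_6), a demethylase that acts on tRNA, had 36, 30 and 47 counts in control and 82, 89 and 95 in knockdown. This was 4.88, 3.68 and 5.33 CPM in control and 5.39, 7.54 and 7.70 CPM in knockdown. It was the only one of the 10 genes with a fitted change above 0, and its groups did not overlap, although knockdown library 1 exceeded control library 3 only slightly. For ALKBH1 the log2 fold change was 0.57 ± 0.56 (SE, 95% interval -0.65 to 1.78, adjusted p = 0.715 in edgeR). ALKBH3 (ENSG00000166199.13_5), which removes methyl groups from RNA and from alkylated DNA, had 2.71, 8.21 and 6.12 CPM in control and 3.22, 7.03 and 1.62 CPM in knockdown. Each group held both low and high libraries. ALKBH3 had a log2 fold change of -0.52 ± 0.74 (SE, adjusted p = 0.825 in edgeR). Its interval of -2.14 to 1.10 was the widest of the 10 and includes differences of more than 2-fold in either direction. Leaving out 1 library moved its value from -0.14, without knockdown library 3, to -1.23, without knockdown library 2. ALKBH1 took 47.3% ± 16.7 of the counts of both erasers in the controls, against 65.7% ± 15.7 in the knockdown libraries (SD, n = 3 each), with overlapping groups.

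The readers YTHDF1 (ENSG00000149658.18_5), YTHDF2 (ENSG00000198492.16_7) and YTHDF3 (ENSG00000185728.17_8) are close paralogues, and reads that fit more than one of them could be split between them by the counting, whose rules are not stated. All 3 had fitted changes below 0, and none passed the test. YTHDF3 had 11.0, 22.3 and 15.0 CPM in control and 10.9, 9.83 and 5.35 CPM in knockdown. All knockdown libraries were below all controls, but control library 1 and knockdown library 1 were almost equal. The means were 16.1 ± 5.7 CPM and 8.67 ± 2.93 CPM (SD, n = 3 each). The log2 fold change of YTHDF3, -0.89 ± 0.43 (SE, 95% interval -1.82 to 0.04), was the furthest from 0 of the 10 genes. In edgeR its p was 0.0587 unadjusted and 0.332 adjusted, and the value ran from -1.24 to -0.58 over 15 alternatives. The value of -1.24 came with library size alone, where the median of all features was -0.30.

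YTHDF1 had 18.6, 10.7 and 12.5 CPM in control and 8.55, 6.70 and 14.5 CPM in knockdown. Knockdown library 3 lay above 2 of the 3 controls, so the groups overlapped. YTHDF1 had a log2 fold change of -0.49 ± 0.42 (SE, adjusted p = 0.666 in edgeR). The value was -0.86 without knockdown library 3 and -0.23 without control library 1. This gene had its highest knockdown level where YTHDF2 and YTHDF3 had their lowest. YTHDF2 had 28.2, 30.8 and 20.9 CPM in control and 20.6, 32.2 and 15.8 CPM in knockdown. Its highest library was a knockdown library, number 2. The log2 fold change of YTHDF2 was -0.22 ± 0.33 (SE, adjusted p = 0.839 in edgeR), and it was -0.55 without knockdown library 2 and 0 without knockdown library 3.

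The balance of the 3 readers moved from library to library, and the groups overlapped for each of their shares. YTHDF2 took 43.2% to 48.8% of their summed counts in control and 44.3% to 66.1% in knockdown. YTHDF1 took 16.7% to 32.2% in control and 13.7% to 40.7% in knockdown. YTHDF3 took 19.0% to 35.0% in control and 15.0% to 27.1% in knockdown. The mean YTHDF1 share was 24.9% ± 7.8 in the controls, against 25.3% ± 13.9 in the knockdown libraries (SD, n = 3 each). For YTHDF2 these means were 46.8% ± 3.1 and 54.0% ± 11.1, and for YTHDF3 28.3% ± 8.3 and 20.8% ± 6.1. Knockdown libraries 2 and 3 were the extremes, with YTHDF1 at 13.7% and 40.7%, and the Wilson intervals of these values, 11.2% to 16.8% and 36.2% to 45.3%, are far apart. The readers' composition in 2 libraries of the same group therefore differed by more than counting error.

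**Figure D3:**
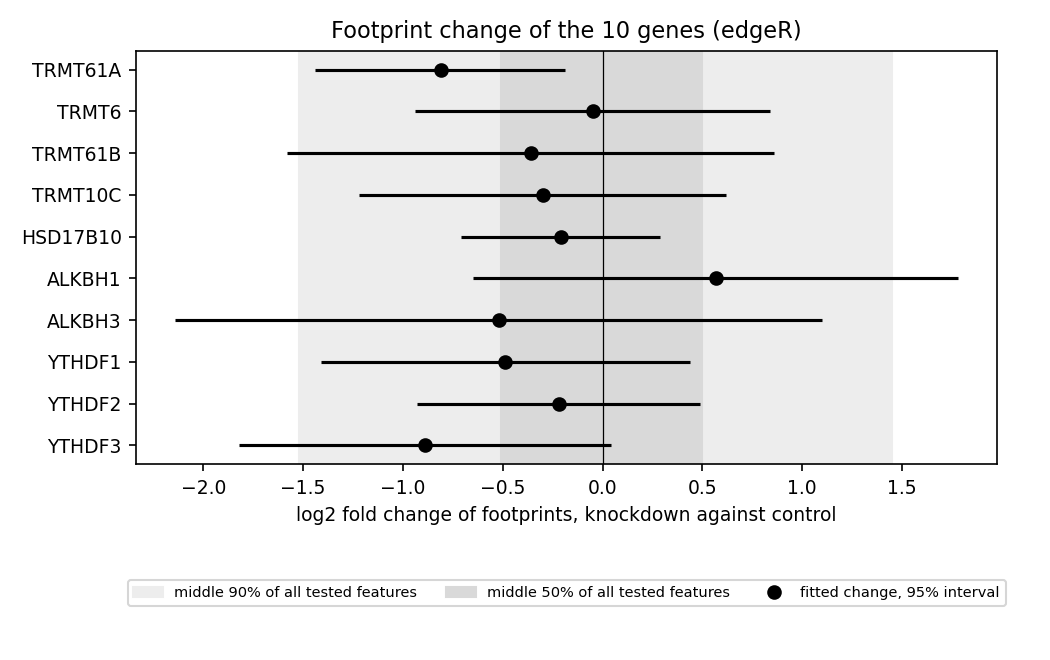
Fitted log2 fold change of footprints, knockdown against control (horizontal axis), for each of the 10 genes, with 95% intervals as bars (edgeR, 3 libraries per group). The darker band spans the middle 50% of all 11653 tested features (-0.51 to 0.50) and the lighter band the middle 90% (-1.52 to 1.45). All 10 values lie inside the lighter band, and the TRMT61A interval alone leaves out 0.

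Over the list, 9 of the 10 genes had fitted changes below 0 and 1 above. The median log2 fold change was -0.33 for the 10 genes and -0.30 for the 9 that the hairpin does not target, beside -0.0047 over all tested features. The 10 genes were read from the same 6 libraries, so they are not independent observations of a direction. The groups did not overlap for 3 genes, TRMT61A and YTHDF3 (lower) and ALKBH1 (higher). This is 3 of 10 beside 24.8% of all tested features, of which 12.7% were lower and 12.2% higher, so the share among the 10 genes was near the background. The summed level of the 10 genes was 256 ± 8 CPM in the controls, against 205 ± 33 CPM in the knockdown libraries (SD, n = 3 each). HSD17B10 made up 44.8% to 54.2% of it. The sum of the other 9 genes was 127, 142 and 129 CPM in control and 88.9, 111 and 94.5 CPM in knockdown, and TRMT61A itself is part of this sum.

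The spread between libraries differed from gene to gene. In control, the coefficient of variation ran from 1.88% for TRMT61A to 48.9% for ALKBH3. In knockdown it ran from 12.7% for TRMT6 to 70.3% for ALKBH3. Counting alone would give TRMT61A 5.94% in control and 6.27% in knockdown, and the values between libraries were 1.88% and 26.7%. Its control libraries thus agreed more closely than counting error, and its knockdown libraries differed by more. A spread taken from 3 libraries is itself imprecise, and whether the control value is unusually low was not tested. The median of its quintile by abundance was 24.8% in control and 26.2% in knockdown, so the knockdown spread of TRMT61A was close to that of other features and its control spread was far below it. Of the 10 genes, 3 in control and 6 in knockdown exceeded the median of the quintile they belong to.

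**Figure D4:**
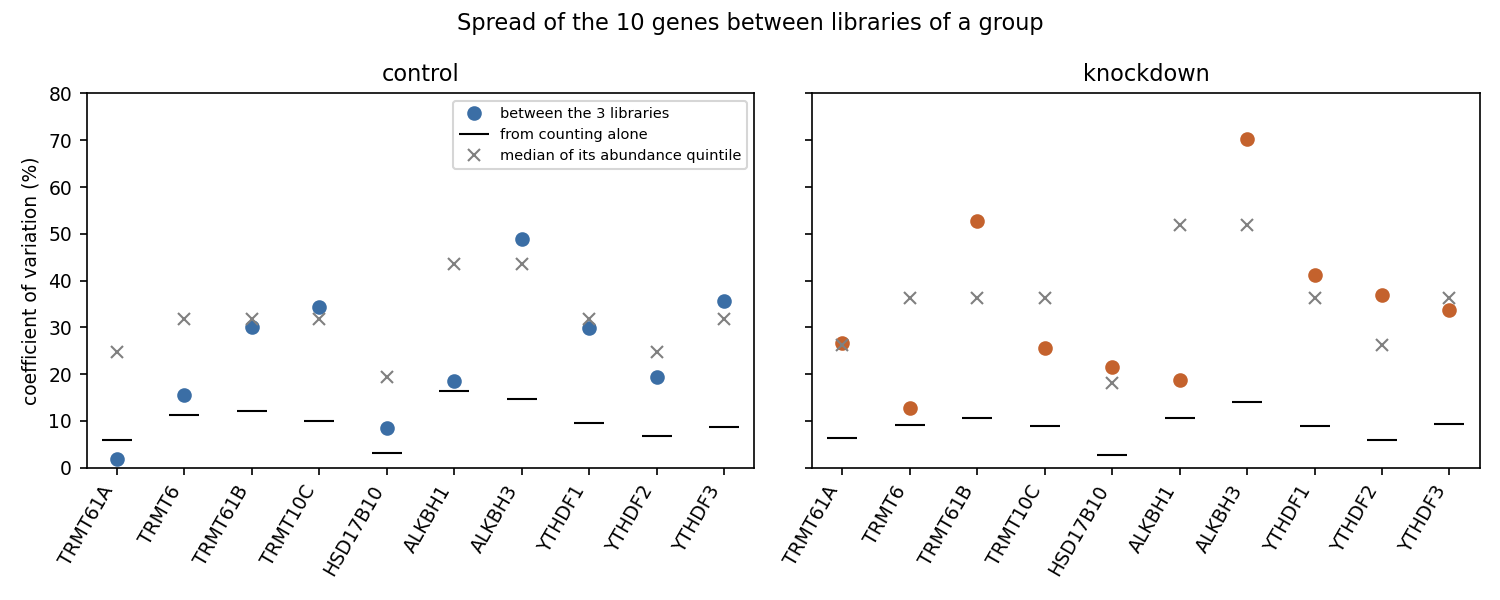
Coefficient of variation between the 3 libraries of a group (vertical axis, percent) for each gene, in control (left) and knockdown (right). Dashes mark the variation that counting alone would give and crosses the median of the tested features in the same quintile by abundance. TRMT61A in control (1.88%) is the only point below its dash, and ALKBH3 is the highest point in both groups.

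The precision reached by the 10 genes broadly followed their counts, though not in strict order. The standard error of the log2 fold change was 0.23 for HSD17B10 and 0.29 for TRMT61A, and reached 0.74 for ALKBH3. It was 0.41 for TRMT6, with 61 to 152 counts per library, and 0.43 for YTHDF3, with 66 to 182. In the quintile that holds TRMT6, TRMT61B, TRMT10C, YTHDF1 and YTHDF3, 2.10% were called and the smallest called change was 1.61. In the quintile that holds both erasers, 0.343% were called and the smallest called change was 2.16. The intervals of 7 of the 10 genes included a 2-fold change. Those of TRMT6, HSD17B10 and YTHDF2 did not.

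TRMT61A was below control under all 15 alternatives run, which the lack of overlap between its groups largely fixed in advance, and it passed the threshold in none of them. Its log2 fold change ran from -1.10 with library size alone to -0.62 without knockdown library 1, with adjusted p from 0.0932 to 0.356 over edgeR, DESeq2 and limma voom. Without knockdown library 2, in which it was highest, the value was -1.01. With library size alone the median of all features moved to -0.30, and TRMT61A lay 0.80 below that median, beside 0.81 below it with TMM.

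**Figure D5:**
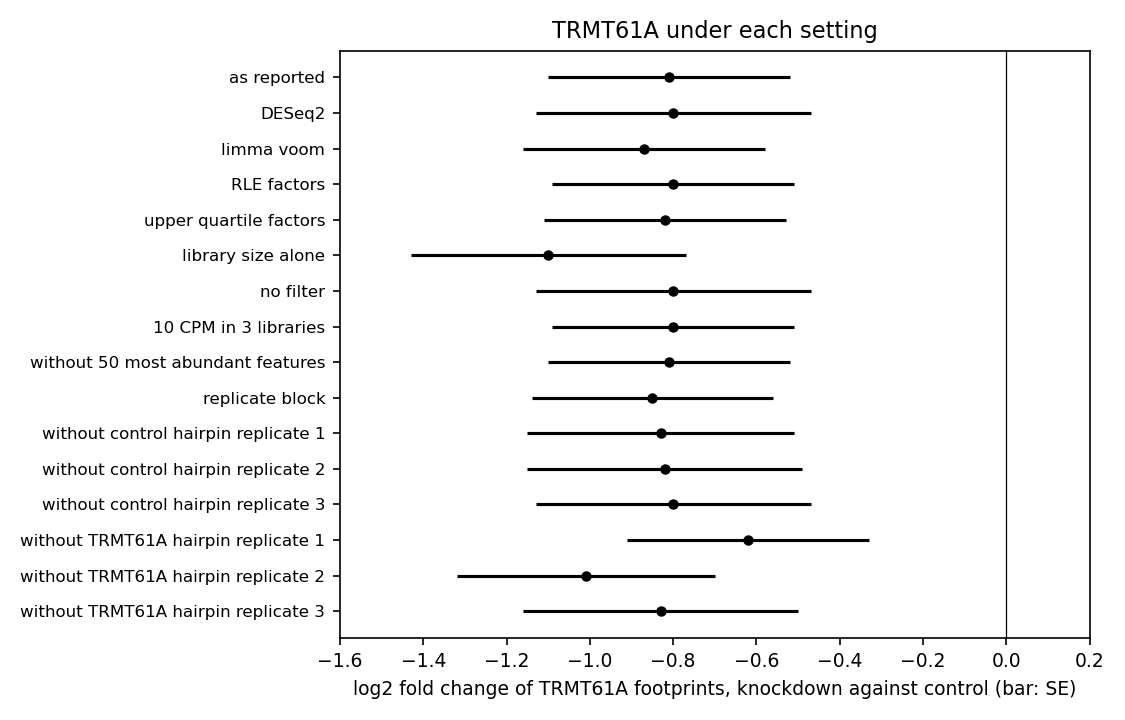
Log2 fold change of TRMT61A footprints, knockdown against control (horizontal axis), as reported and under 15 alternatives (rows), with bars of 1 standard error. All values lie between -1.10 and -0.62, and the value is -0.62 without knockdown library 1, -1.01 without knockdown library 2 and -0.83 to -0.80 without 1 of the control libraries.

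By a fixed rule, the features whose level over the 6 libraries was most like that of TRMT61A were looked up among 5907 others with a mean of at least 10 CPM. They were ENSG00000146648.18_6 (Pearson's r of log2 CPM 0.996) and ENSG00000130702.15_5 (0.993), and 61 features had an r above 0.95, which shows how little 6 libraries single out. ENSG00000146648.18_6 had 105, 114 and 111 CPM in control and 47.5, 77.0 and 67.1 CPM in knockdown, with a log2 fold change of -0.78 ± 0.24 (SE, adjusted p = 0.106 in edgeR). ENSG00000130702.15_5 had 42.6, 41.2 and 52.1 CPM in control and 10.7, 24.6 and 18.0 CPM in knockdown, with a log2 fold change of -1.35 ± 0.32 (SE, adjusted p = 0.0442 in edgeR). Both share with TRMT61A the low value in knockdown library 1 and the highest knockdown value in library 2. This pattern and their lower knockdown level largely follow from the rule that picked them. Among the 10 genes, the correlation with TRMT61A over the 6 libraries ran from -0.475 for ALKBH1 to 0.661 for HSD17B10, and was -0.0995 for TRMT6. These correlations are descriptions over libraries that share depth and scaling.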

How the data were processed

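The deposited table gives raw counts of ribosome footprints per Ensembl ID, and its values show no scaling by the authors. The submitters' processing notes name fastp, Bowtie 1.3.1 and hg38. Not given in the sources used here: the counting tool, annotation, use of strand and read lengths. Most IDs carry a suffix that GENCODE uses for annotation lifted to GRCh37, so no coordinates are printed. The vector-named columns were taken for the control samples by assay and replicate number. A further 6 columns, of samples not described here, were not used, so footprints were not divided by mRNA.

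Counts were filtered (filterByExpr), scaled (TMM) and tested over all 6 libraries with edgeR 4.0.16 in R 4.3.3 (quasi-likelihood F-test, two-sided), after tests on simulated data. Alternatives were DESeq2 1.42.0, limma 3.58.1 with voom, other scaling and filters, removal of the 50 most abundant features, a replicate block and each library left out. Shares carry Wilson 95% intervals, which cover counting error only: no molecular identifiers are described. A count of 0 would allow 3 counts, at most 4.43e-05% of a library. Levels per coding length were not computed, since no coding lengths were used here. All 10 genes are named. Likeness to TRMT61A took the 2 features of highest r (prior count 2). The genes were chosen by function, with no cut on a measured value, but they and the lists were chosen with earlier results of these data known.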

Additional observations from a re-analysis of the deposited data

How the results depend on the processing

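For TRMT61A, all 15 alternatives kept the direction and missed the threshold, and 0 of the 10 genes were called in each of them. Only 6 of the 10 were tested with at least 10 CPM in 3 libraries. Of 131 values of the other 9 genes, 128 kept their direction and side of the threshold, counting YTHDF2 without knockdown library 3, which rounds to 0, and 3, all from leaving out a library, changed sign. With 1 library left out, TRMT6 ran from -0.15 to 0.07 (0.07 without control library 3 and 0.05 without knockdown library 2), and TRMT61B from -0.62 to 0.02 (0.02 without knockdown library 2). Leaving out 1 library, added for the shares after seeing the data, gave differences in the TRMT61A share from -15.5 to -7.03 percentage points. For the readers the YTHDF1 difference ran from -7.36 to 6.11, that of YTHDF2 from 1.18 to 12.1 and that of YTHDF3 from -12.2 to -4.24. The count of called features was 364 (173 higher, 191 lower), 834 in DESeq2 on all features with a count (12337 adjusted p-values undefined), 735 with no filter, 602 with at least 10 CPM in 3 libraries, 208 with the replicate block and 47 to 171 with 1 library left out. The cause of these differences was not tested, though the fits without 1 library have fewer samples. Library size alone gave 63 higher and 334 lower, with the median log2 fold change of all features at -0.30, beside -0.0047 with TMM. With the replicate block TRMT61A was at -0.85 (adjusted p = 0.186 in edgeR). The deviations of libraries 1, 2 and 3 from their group means had correlations of -0.00648, -0.0154 and 0.0386 across the groups. Library 3 alone was most like its own number. With 3 libraries per group, these values cannot show whether libraries of the same number share more than the number.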
